A study of Mus musculus with 16 samples.

Results

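The 10 genes described here are the genes for apolipoproteins A-IV (Apoa4), A-I (Apoa1), C-III (Apoc3), A-V (Apoa5), A-II (Apoa2), B (Apob), E (Apoe), C-I (Apoc1) and C-II (Apoc2), together with Mttp, the microsomal triglyceride transfer protein that loads lipid onto apolipoprotein B. They were chosen by gene symbol and all 10 were present among 22612 genes in the expression table of mouse liver RNA sequencing. All 10 reached at least 1 TPM (transcript abundance per length, scaled to the same total in every library) in every library, so none was lost to the filter on low values.

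The libraries came from livers of male C57BL/6 mice bought at 7 weeks of age, which acclimated for 1 week and then spent 16 weeks on 1 of 4 feeding regimens. The ketogenic-alternating group switched every 2 weeks between a high-fat diet (58% of energy from fat) and a ketogenic diet (90.5% of energy from fat). In the chow-alternating group the same high-fat diet took turns with chow (11% of energy from fat) at the same interval. The high-fat group received the high-fat diet throughout, and the chow group received chow throughout. No genotype or drug differed between groups, and livers were collected from all of them after an overnight fast. Each group had 6 mice and 4 sequenced libraries, 16 libraries in all. The labels give neither the diet that the alternating groups ate last before collection, nor say whether the 4 libraries of a group stand for 4 animals. The p-values below therefore reflect variation among libraries, which may be technical.

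Apolipoproteins are the protein coat of lipoprotein particles. The liver secretes very-low-density lipoprotein built on apolipoprotein B and high-density lipoprotein built mainly on apolipoproteins A-I and A-II, while apolipoproteins C and A-V on the particle surface set how fast plasma lipases clear their triglyceride and apolipoprotein E serves as the ligand for their uptake. Apolipoprotein A-IV is known chiefly as a product of the intestine that travels on chylomicrons, and in mice its gene is also expressed in the liver.

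Apoa1, Apoc3, Apoa4 and Apoa5 lie in a single cluster of 43340 bases on chromosome 9 (mm10, 46228580 to 46271919). Apoa4 (ENSMUSG00000032080) occupies 46240696 to 46243459 on the plus strand and is represented by 1 transcript of 3 exons and 1815 bases, which carried all of its TPM. Apoa1 (ENSMUSG00000032083, 46228580 to 46230466) and Apoa5 (ENSMUSG00000032079, 46268633 to 46271919) share its strand, and Apoc3 (ENSMUSG00000032081, 46232933 to 46235636) runs on the minus strand. The promoters of 3 cluster genes are shown because the cluster members moved differently between diets. They are the RefSeq promoter windows (GRCm38.p6) of 250 bases before and 50 bases from the start on, on the plus strand, at chr9:46240594-46240893 for Apoa4, chr9:46228380-46228679 for Apoa1 and chr9:46268383-46268682 for Apoa5. Capitals mark a match to 1 of 6 motifs searched on both strands: the promoter element TATAAA, the core TGACG of the cAMP response element, the HNF4A elements CAAAGTCCA and CAAAGTTCA, the element CCAAT bound by NF-Y, and the element GGGCGG bound by Sp1.
Apoa4: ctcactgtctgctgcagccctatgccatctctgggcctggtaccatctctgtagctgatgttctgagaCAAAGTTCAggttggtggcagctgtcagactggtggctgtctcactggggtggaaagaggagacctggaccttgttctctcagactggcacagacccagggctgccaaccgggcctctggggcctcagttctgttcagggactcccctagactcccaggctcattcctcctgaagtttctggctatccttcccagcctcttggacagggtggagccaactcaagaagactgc
Apoa1: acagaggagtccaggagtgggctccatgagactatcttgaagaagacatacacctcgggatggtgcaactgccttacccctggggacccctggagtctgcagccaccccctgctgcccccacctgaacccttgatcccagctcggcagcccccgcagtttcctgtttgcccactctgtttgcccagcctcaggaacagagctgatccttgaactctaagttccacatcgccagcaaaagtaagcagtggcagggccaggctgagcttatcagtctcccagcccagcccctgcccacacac
Apoa5: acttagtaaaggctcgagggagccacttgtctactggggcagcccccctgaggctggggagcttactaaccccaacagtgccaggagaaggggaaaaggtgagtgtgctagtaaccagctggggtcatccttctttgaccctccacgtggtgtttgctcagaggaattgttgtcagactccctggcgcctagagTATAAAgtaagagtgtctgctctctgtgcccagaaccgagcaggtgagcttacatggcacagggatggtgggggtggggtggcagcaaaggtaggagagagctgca
The Apoa4 window held CAAAGTTCA, whose first base lay at -182 from the RefSeq start, a motif found in 0.39% of 32851 mouse promoters. The Apoa5 window held TATAAA at -56, present in 13.6% of promoters, and the Apoa1 window held none of the 6 motifs. Another RefSeq window of Apoa5, not shown, has its start at 46268608 and places the same TATAAA at -31. The RefSeq start of Apoa4 lay 148 bases downstream of the start of the transcript used for the expression values, so the Apoa4 window covers bases on either side of that earlier start. A match is a description of the letters and says nothing of factor binding in these livers. A window was given for 8 of the 10 genes.

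Between 10575 and 11695 genes reached 1 TPM, the 20 highest genes of a library held 27.08% to 38.82% of its TPM, and mitochondrial genes held 8.611% to 18.37%, highest in chow replicate 3. In 4 libraries, high-fat replicates 1 and 2 and chow replicates 2 and 3, the 20 highest genes held over 33%. The sequencing depth of each library is unknown because TPM keeps none. Hepatocyte markers were abundant everywhere, with 9 markers summing to 72400 to 111000 TPM per library, while 6 exocrine pancreas markers together reached at most 0.139 TPM. Ketogenic-alternating replicate 1 stood apart for markers of several other cell types. Its 7 markers of recruited and lipid-associated macrophages summed to 196 TPM, against 31.4 to 43.2 TPM in the other 3 libraries of its group, with Gpnmb at 14.6 TPM against 0 to 0.342 TPM and Trem2 at 14.5 TPM against 2.31 to 2.81 TPM. The cholangiocyte markers Epcam, at 8.56 TPM against 1.16 to 1.53 TPM, and Krt19, at 6.22 TPM against 0.32 to 0.89 TPM, were likewise high there, as was Spp1, a marker in both sets, at 157 TPM against 26.1 to 38.5 TPM. Many results of the ketogenic-alternating group are therefore given with and without this library. In a bulk sample fewer cells of a type and less RNA per cell cannot be told apart.

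Apolipoprotein transcripts made up a large share of liver RNA under every regimen. The 10 genes summed to 8.49% ± 1.0 of TPM in ketogenic-alternating livers, 8.85% ± 0.476 in chow-alternating livers, 9.38% ± 1.27 in high-fat livers and 9.28% ± 1.5 in chow livers (SD, n = 4 each). By mean level Apoe was the 2nd most abundant of all genes, Apoa2 the 3rd, Apoa1 the 5th and Apoc1 the 13th. Apoa4 had the widest range of the 10 genes over the 16 libraries, 32.0-fold, followed by Apoc2 at 18.3-fold. The other 8 genes ranged between 1.41-fold for Apoe and 3.44-fold for Apob. Of the 10 genes, 3 were called in at least 1 of 6 comparisons by limma at a Benjamini-Hochberg adjusted p below 0.05 over all genes tested, and 7 in none.

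**Figure D1:**
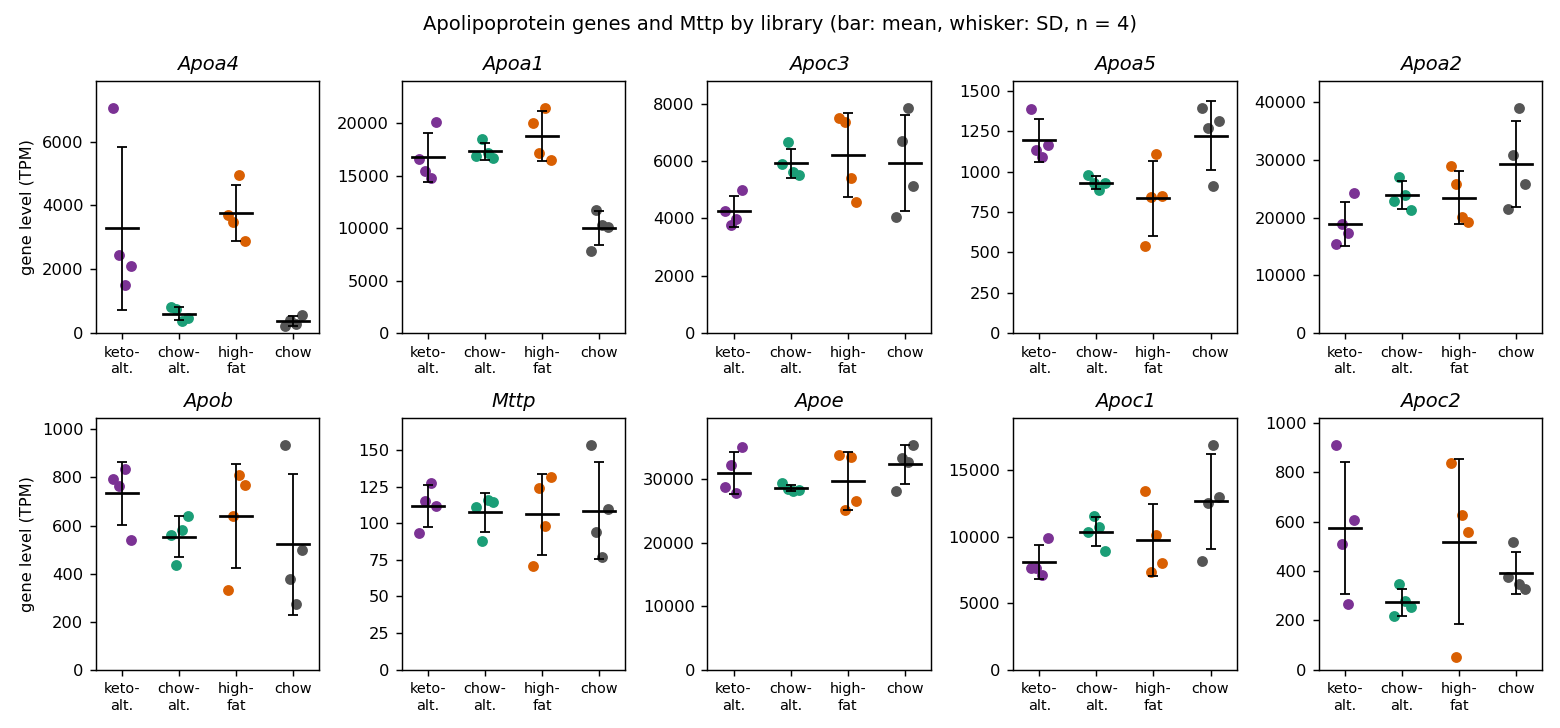
Gene level in TPM (linear axes starting at 0) of the 10 genes in each of 16 libraries, with group mean (bar) and SD (whisker, n = 4 libraries per group). Apoa4 averaged 3280 and 3758 TPM in ketogenic-alternating and high-fat livers against 606 TPM in chow-alternating and 369 TPM in chow livers, and Apoa1 was lower in chow livers than in the libraries of the other groups.

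Apoa4 was high in high-fat and ketogenic-alternating livers and low in chow-alternating and chow livers. Its level was 7053, 2448, 1505 and 2114 TPM in ketogenic-alternating livers, 822, 748, 388 and 467 TPM in chow-alternating livers, 3691, 3490, 4964 and 2887 TPM in high-fat livers, and 221, 398, 290 and 568 TPM in chow livers. Every high-fat and every ketogenic-alternating library lay above every chow-alternating and every chow library, and the ranges overlapped within each of those pairs. The order of the group means was high-fat (3758 ± 874), ketogenic-alternating (3280 ± 2546), chow-alternating (606 ± 211) and chow (369 ± 151 TPM, SD, n = 4 each). Replicate 1 stood far above the rest of the ketogenic-alternating group. The other 3 libraries of that group, at 1505 to 2448 TPM, were below the 4 high-fat libraries.

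In high-fat against chow livers Apoa4 rose 10.2-fold by group means, with a log2 fold change of 3.41 (SE 0.278, limma, Benjamini-Hochberg adjusted p = 7.2e-04). The fold change of log2(TPM + 1) stayed between 3.19 and 3.64 in 18 alternatives that set no fold limit, and the call held in all of them. In chow-alternating against high-fat livers Apoa4 fell by 2.67 on the log2 scale (SE 0.248, limma adjusted p = 0.00117). That call was lost without the 4 libraries with over 33% of TPM in 20 genes, with a log2 fold change of -2.71 and an adjusted p = 0.102 in a fit of 4 against 2 libraries. In ketogenic-alternating against high-fat livers the log2 fold change was -0.44 (SE 0.389, limma adjusted p = 0.577), and it was -0.89 (adjusted p = 0.532) without ketogenic-alternating replicate 1.

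Apoa4 was higher in ketogenic-alternating livers than in livers of either group fed chow. Its log2 fold change was 2.23 in ketogenic-alternating against chow-alternating livers (SE 0.417, limma adjusted p = 0.0166), and 1.78 (adjusted p = 0.00955) without ketogenic-alternating replicate 1. This call was lost with no filter on low values (adjusted p = 0.061) and without chow-alternating replicate 3 (2.04, adjusted p = 0.0504). In ketogenic-alternating against chow livers it was 2.97 (SE 0.423, limma adjusted p = 0.00274), called in all 18 alternatives. In chow-alternating against chow livers it was 0.74 (SE 0.300, limma adjusted p = 0.340), with overlapping groups.

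Because apolipoprotein A-IV is a textbook product of enterocytes, their markers were examined beside it. The 10 enterocyte markers summed to 265 to 383 TPM in ketogenic-alternating, 119 to 153 TPM in chow-alternating, 186 to 225 TPM in high-fat and 103 to 146 TPM in chow livers. The brush-border disaccharidases Sis and Lct were at 0 in all 16 libraries, while Cdx1, Cdx2, Alpi and Vil1 were highest in ketogenic-alternating replicate 1, the library with 7053 TPM of Apoa4. It held 0.531 TPM of Cdx1, 0.385 TPM of Cdx2, 0.154 TPM of Alpi and 0.886 TPM of Vil1. The other 3 libraries of the group were at 0 for Cdx1, Cdx2 and Alpi and held at most 0.055 TPM of Vil1, and outside the group Cdx2 and Alpi were at 0. Fabp2, the intestinal fatty acid binding protein gene, carried most of the marker sum and followed the order of Apoa4 in part, averaging 264 ± 47.3, 89.2 ± 8.80, 169 ± 12.9 and 79.9 ± 17.8 TPM in ketogenic-alternating, chow-alternating, high-fat and chow livers (SD, n = 4 each). Fabp2 was higher in high-fat than in chow livers (169 and 79.9 TPM, limma adjusted p = 0.0148) and lower in chow-alternating than in high-fat livers (-0.92, adjusted p = 0.0313). Anpep, the only other enterocyte marker that passed the filter, averaged 55.6 ± 6.63, 43.7 ± 5.17, 41.6 ± 9.75 and 44.1 ± 5.56 TPM in the same order of groups. Its log2 fold change was -0.10 in high-fat against chow livers (limma adjusted p = 0.931) and 0.09 in chow-alternating against high-fat livers (adjusted p = 0.9995), each opposite in sign to that of Fabp2. In ketogenic-alternating replicate 1 Anpep was 48.2 TPM, against 51.8 to 62.0 TPM in the other 3 libraries of its group. Fabp2 was 270 TPM there, against 205 to 320 TPM. The part of these markers in the Apoa4 result was not tested.

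**Figure D2:**
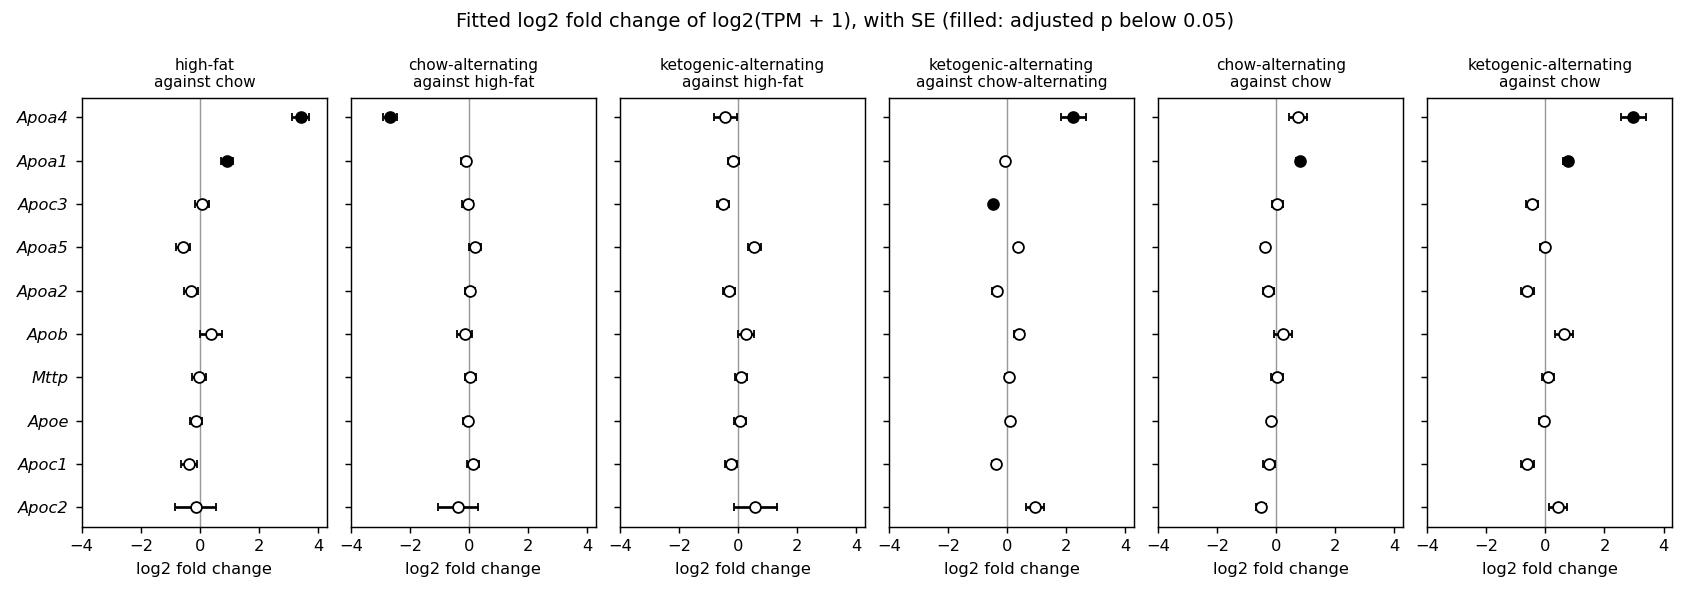
Fitted log2 fold change of log2(TPM + 1) with its SE for each gene (rows) in 6 comparisons (panels), 4 against 4 libraries each; filled points have a limma adjusted p below 0.05. Apoa4 has the largest changes (3.41 in high-fat against chow, 2.97 in ketogenic-alternating against chow and -2.67 in chow-alternating against high-fat), and most other points lie within 1 log2 unit of 0.

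The comparison of high-fat with chow livers asks what the continuous high-fat diet does. Limma called 2 of the 10 genes, Apoa4 and Apoa1, both higher, while 1.06% of all 10960 genes tested were called. Groups did not overlap for 2 of the 10 genes, against 8.22% of all genes. The median log2 fold change of the 10 genes was -0.08, beside -0.05 for all genes tested. Chow-alternating against high-fat, which asks what returning to chow at intervals does, called 1 of 10, Apoa4, against 0.0459% of genes, and groups did not overlap for 1 of 10 against 3.02% of genes. Ketogenic-alternating against high-fat (which asks what alternation with the ketogenic diet does) called 0 of 10 by limma against 0.036% of genes. Groups overlapped for all 10, while 6.85% of genes did not overlap, and 2 of 10, Apoc3 and Apoa5, had an unadjusted p below 0.05, as did 1116 of all 11108 genes.

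The remaining comparisons called few members as well. Ketogenic-alternating against chow-alternating called 2 of 10, Apoa4 higher and Apoc3 lower, against 5.04% of all genes. Chow-alternating against chow called 1 of 10, Apoa1, against 1.16% of genes, and groups did not overlap for 1 of 10 against 8.48% of genes. Ketogenic-alternating against chow called 2 of 10, Apoa4 and Apoa1, against 5% of genes, and groups did not overlap for 2 of 10 against 13.3% of genes. The median of all genes tested was shifted upward in the comparisons of the ketogenic-alternating group, by 0.21 against high-fat, 0.19 against chow-alternating and 0.15 against chow on the log2 scale. Each pair of comparisons that has a group in common also shares that group's 4 libraries.

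Apoa1, the structural protein of high-density lipoprotein, was higher wherever the high-fat diet had been fed. Its level was 16630, 15460, 14820 and 20090 TPM in ketogenic-alternating livers, 16930, 18520, 17180 and 16680 TPM in chow-alternating livers, 20050, 17190, 21460 and 16460 TPM in high-fat livers, and 7867, 11720, 10300 and 10110 TPM in chow livers. The 12 libraries of the fat-fed groups all lay above the 4 chow libraries, and the 3 fat-fed groups overlapped one another. The log2 fold change was 0.92 in high-fat (SE 0.192, limma adjusted p = 0.04995), 0.81 in chow-alternating (SE 0.137, adjusted p = 0.0231) and 0.75 in ketogenic-alternating livers (SE 0.168, adjusted p = 0.0267), each against chow. The last call was lost without ketogenic-alternating replicate 1 (0.75, adjusted p = 0.0608). In high-fat against chow livers 13 of 18 alternatives lost the call, among them those without any 1 of the 8 libraries, with adjusted p between 0.00197 and 0.349 over all of them, and 7 and 11 of 18 lost it in chow-alternating and ketogenic-alternating against chow livers, while the log2 fold change stayed between 0.58 and 1.07. Apoa1 differed from Apoa4 in chow-alternating against high-fat livers, where its log2 fold change was -0.11 (SE 0.152, limma adjusted p = 0.9995).

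Apoa2, the 2nd main protein of high-density lipoprotein (ENSMUSG00000005681, chromosome 1, 171225054 to 171226379), was called in no comparison. It averaged 18920 ± 3836, 23830 ± 2427, 23440 ± 4646 and 29250 ± 7505 TPM in ketogenic-alternating, chow-alternating, high-fat and chow livers (SD, n = 4 each). The log2 fold change was -0.61 in ketogenic-alternating against chow livers (SE 0.212, limma adjusted p = 0.126) and -0.31 in high-fat against chow livers (SE 0.237, limma adjusted p = 0.711). Apoa2 passed the test in ketogenic-alternating against chow livers without chow replicate 1 (-0.75, adjusted p = 0.033) and in ketogenic-alternating against chow-alternating livers without ketogenic-alternating replicate 4 (-0.47, adjusted p = 0.0278). Without ketogenic-alternating replicate 1 the values were -0.52 (limma adjusted p = 0.265) and -0.25 (adjusted p = 0.308) in the same order. Leaving out 1 library moved the number of all genes called between 181 and 1620 in the first comparison and between 162 and 2513 in the second. Calls gained in such refits, here and below, are to be read beside those ranges. The Apoa1 to Apoa2 ratio within a library, which library scaling cannot change, was 1.08, 0.820, 0.860 and 0.828 in ketogenic-alternating livers, 0.738, 0.684, 0.717 and 0.782 in chow-alternating livers, 0.694, 0.668, 1.07 and 0.859 in high-fat livers, and 0.367, 0.381, 0.264 and 0.391 in chow livers. All 12 fat-fed libraries lay above all 4 chow libraries, with no overlap. Apoa2 was therefore the more abundant transcript per length in every chow library and in all but 2 of the fat-fed ones.

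**Figure D3:**
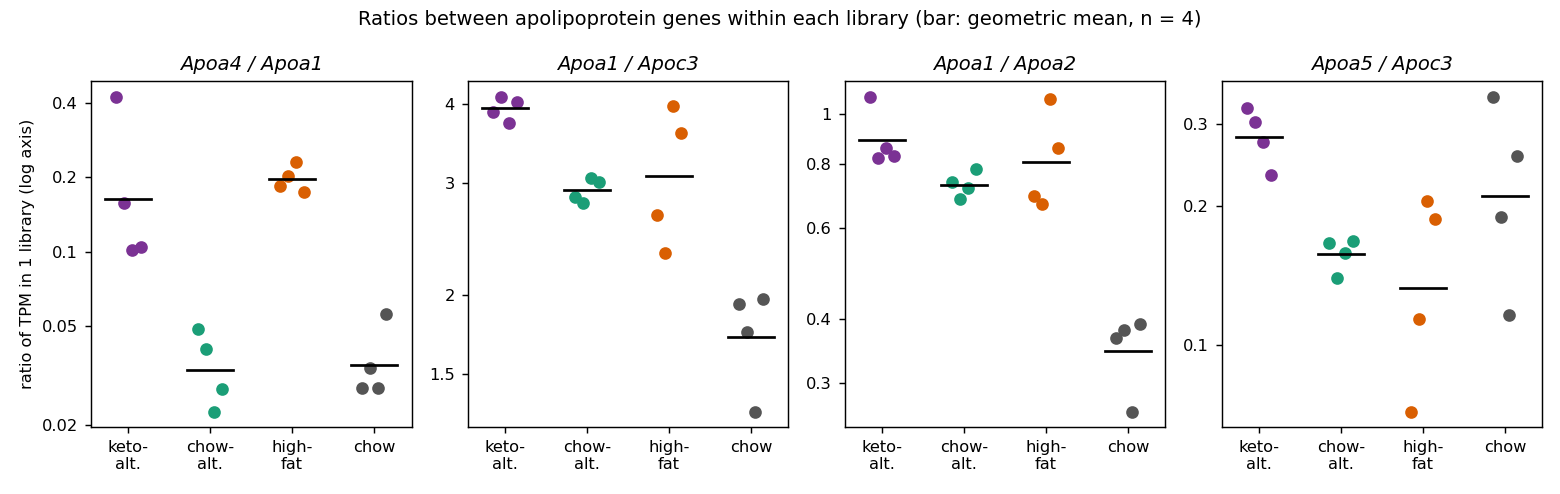
Ratios of TPM between apolipoprotein genes within each library (log axes), with the geometric mean of each group (bar, n = 4). Apoa1 to Apoa2 and Apoa1 to Apoc3 are lower in all chow libraries (at most 0.391 and 1.97) than in all other libraries, and Apoa4 to Apoa1 is at most 0.0562 in chow-alternating and chow livers against at least 0.102 in the other groups.

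Apoc3, whose protein slows lipolysis and uptake of triglyceride-rich particles, stood lower in ketogenic-alternating livers. Its level was 4271, 3759, 3964 and 4983 TPM in ketogenic-alternating livers, 5910, 6647, 5609 and 5525 TPM in chow-alternating livers, 7492, 7363, 5399 and 4555 TPM in high-fat livers, and 4056, 6702, 7849 and 5131 TPM in chow livers. The ketogenic-alternating and chow-alternating libraries did not overlap, and 3 of the 10 genes had no overlap in that comparison against 16.8% of all genes. Apoc3 fell by 0.48 on the log2 scale in ketogenic-alternating against chow-alternating livers (SE 0.114, limma adjusted p = 0.0399), and the call was lost without ketogenic-alternating replicate 1 (-0.49, adjusted p = 0.0652). The call was lost in 11 of 17 alternatives, 7 of which left out 1 library, and adjusted p reached 0.264 with all 16 libraries in 1 fit. Against high-fat livers its log2 fold change was -0.52 (SE 0.200, limma adjusted p = 0.486), and against chow livers -0.45 (SE 0.203, limma adjusted p = 0.222), or -0.61 (adjusted p = 0.0392) without chow replicate 1. The change against chow livers was -0.45 (adjusted p = 0.342) without ketogenic-alternating replicate 1.

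Apoa5, whose protein enhances lipolysis of the same particles, was called in no comparison. Its level was 1385, 1134, 1088 and 1163 TPM in ketogenic-alternating livers, 981, 928, 884 and 929 TPM in chow-alternating livers, 540, 842, 1109 and 850 TPM in high-fat livers, and 1393, 1269, 910 and 1314 TPM in chow livers. The ketogenic-alternating libraries lay above the chow-alternating libraries without overlap. The log2 fold change between them was 0.35 (SE 0.0944, limma adjusted p = 0.0563), just outside the threshold and inside it without ketogenic-alternating replicate 4 (0.36, adjusted p = 0.0347). It was weaker without ketogenic-alternating replicate 1 (0.28, adjusted p = 0.107). With all libraries, the log2 fold change was 0.55 in ketogenic-alternating against high-fat livers (SE 0.206, limma adjusted p = 0.486) and -0.02 against chow livers (SE 0.158, limma adjusted p = 0.944). The ratio of Apoa5 to Apoc3 was 0.233 to 0.324 in ketogenic-alternating livers, 0.140 to 0.168 in chow-alternating livers, 0.0720 to 0.205 in high-fat livers and 0.116 to 0.343 in chow livers. It was higher in every ketogenic-alternating library than in every chow-alternating or high-fat library. The transcripts of Apoa5 and Apoc3 differ in length (2450 and 531 bases, weighted by TPM), and the part of length in this ratio was not tested.

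Within the cluster the balance of neighbours shifted in distinct ways. The Apoa4 to Apoa1 ratio averaged 0.197 ± 0.153 in ketogenic-alternating, 0.0349 ± 0.0118 in chow-alternating, 0.198 ± 0.0247 in high-fat and 0.0366 ± 0.0134 in chow livers (SD, n = 4 each). The chow-alternating and chow ranges overlapped, although Apoa1 itself did not overlap between these groups. The Apoa1 to Apoc3 ratio was 3.74 to 4.11 in ketogenic-alternating, 2.79 to 3.06 in chow-alternating, 2.33 to 3.98 in high-fat and 1.31 to 1.97 in chow livers. Chow libraries were below all others in this ratio, and ketogenic-alternating libraries were above chow-alternating libraries without overlap. These ratios are descriptions and were given no test.

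Within 250000 bases of the chromosome 9 cluster 4 of 5 neighbours passed the filter, and none was called in the comparisons with the high-fat group. Zpr1, a zinc finger protein gene 1145 bases from the cluster end beyond Apoa5, averaged 18.6 ± 6.05, 18.2 ± 2.43, 18.6 ± 5.04 and 31.9 ± 4.11 TPM in ketogenic-alternating, chow-alternating, high-fat and chow livers. It was lower in chow-alternating (log2 fold change -0.78, limma adjusted p = 0.0293) and ketogenic-alternating livers (-0.79, adjusted p = 0.0484) than in chow livers, the direction opposite to that of Apoa1. The log2 fold change in high-fat against chow livers was of like size at -0.79 but had a limma adjusted p = 0.164.

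Apob, the structural protein of very-low-density lipoprotein (ENSMUSG00000020609, chromosome 12, 7977648 to 8016835), and Mttp (ENSMUSG00000028158, chromosome 3, 138089854 to 138144968) were called in no comparison. Apob averaged 734 ± 132, 554 ± 86.8, 638 ± 217 and 521 ± 292 TPM in ketogenic-alternating, chow-alternating, high-fat and chow livers (SD, n = 4 each). Its largest log2 fold change was 0.63 in ketogenic-alternating against chow livers (SE 0.311, limma adjusted p = 0.258), or 0.96 (adjusted p = 0.0169) without chow replicate 1. Against chow-alternating livers it was 0.40 (limma adjusted p = 0.130), or 0.54 (adjusted p = 0.0215) without ketogenic-alternating replicate 4. With ketogenic-alternating replicate 1 left out, the Apob changes against chow and chow-alternating livers were 0.58 (limma adjusted p = 0.426) and 0.36 (adjusted p = 0.2445). Mttp averaged 112 ± 14.2, 107 ± 13.2, 106 ± 27.7 and 109 ± 32.9 TPM in the same order of groups, and its log2 fold changes lay between -0.03 and 0.11. The sign of the Mttp change in the ketogenic-alternating comparisons flipped under median-of-ratios scaling.

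Apob levels varied widely within groups, along with a measure of transcript length. Apob has a TPM-weighted transcript length of 13578 bases, and Apoc1 one of 442 bases. For a length measure, each gene's log2(TPM + 1) was set against its own mean over the 16 libraries, using genes of at least 1 TPM in all of them. The measure of a library is the median deviation of 2393 genes of at least 4000 bases minus that of 740 genes under 1000 bases. The measure was 0.505 in chow replicate 1, where Apob was 936 TPM and the Apob to Apoc1 ratio 0.114, and -0.55 in chow replicate 3, where Apob was 272 TPM and the ratio 0.0161. High-fat replicate 1 had a measure of -0.6, an Apob level of 332 TPM and a ratio of 0.0248, the lowest of its group. The lengths of Apoa5, Apoc3 and Apoa2 are 2450, 531 and 503 bases. The Apoa5 to Apoc3 ratio was 0.343, 0.116 and 0.072 in chow replicate 1, chow replicate 3 and high-fat replicate 1. It was 0.233 in ketogenic-alternating replicate 4, where the measure was -0.18. The measure was 0.255, 0.262, 0.441 and -0.18 in ketogenic-alternating libraries and -0.0426, -0.267, -0.096 and 0.0587 in chow-alternating libraries. Chow replicate 1 had the highest measure of its group and ketogenic-alternating replicate 4 the lowest of its group. Those were the libraries whose removal gave calls of Apoa2, Apob and Apoc1 in refits. The part of this measure in the results was not tested.

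**Figure D4:**
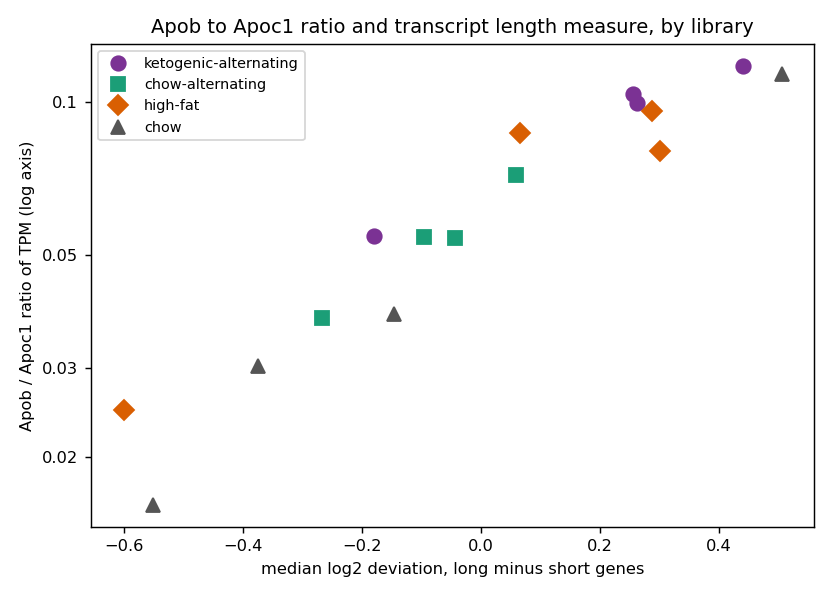
Apob to Apoc1 ratio of TPM (log axis) against the length measure (median log2 deviation of long genes minus that of short genes, each gene set against its mean over 16 libraries), 1 point per library, symbols by group. In each group the library with the lowest measure has the lowest ratio, with chow replicate 1 at 0.114 and chow replicate 3 at 0.0161.

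The Apoe cluster on chromosome 7 (19671579 to 19699188, 27610 bases, all 3 genes on the minus strand) showed no called change. Apoe (ENSMUSG00000002985, 19696109 to 19699188), the ligand for remnant uptake, averaged 31000 ± 3279, 28610 ± 527, 29770 ± 4580 and 32380 ± 3098 TPM in ketogenic-alternating, chow-alternating, high-fat and chow livers (SD, n = 4 each). Its log2 fold changes lay between -0.17 and 0.11. Apoc1 (ENSMUSG00000040564, 19689481 to 19692660), whose protein inhibits lipase and receptor binding, averaged 8074 ± 1255, 10380 ± 1113, 9717 ± 2716 and 12640 ± 3556 TPM in the same order. The log2 fold change of Apoc1 was -0.61 in ketogenic-alternating against chow livers (SE 0.213, limma adjusted p = 0.128) and -0.37 against chow-alternating livers (SE 0.131, limma adjusted p = 0.109). Without chow replicate 1 the change against chow livers was -0.81 (adjusted p = 0.0153), and without ketogenic-alternating replicate 4 the change against chow-alternating livers was -0.47 (adjusted p = 0.0218). The latter change was -0.34 (limma adjusted p = 0.188) without ketogenic-alternating replicate 1. Against chow livers the adjusted p of Apoc1 reached 0.303 with 1 library left out.

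The transcripts assigned to Apoe differed sharply between libraries of the same diet. Transcript ENSMUST00000174355 held 67.3% of Apoe TPM in ketogenic-alternating replicate 2, 51.4% in high-fat replicate 2 and 70.7% in high-fat replicate 3, against 0.163% to 0.48% in the other 13 libraries. The usual main transcript, ENSMUST00000174064, held 23.9%, 29.6% and 20.5% in those 3 libraries and 55.1% to 68.4% in the other 13. The 2 transcripts have the same coding segments of 933 bases and differ in the first exon, at 19698972 to 19699008 and 19699011 to 19699188. Shares of 9 transcripts of the members were compared in 3 comparisons by exact two-sided permutation tests, and 0 of 27 passed adjustment. The smallest possible unadjusted p was 0.0286, so over 27 tests a few differences could not pass however large, and the lack of calls says little. The 3 tests at an unadjusted p below 0.05 were all of Apoa2 (ENSMUST00000111321 and ENSMUST00000005824). ENSMUST00000174355 averaged 30.7% ± 35.9 in high-fat livers and 0.248% ± 0.0714 in chow livers (SD, n = 4 each, exact permutation p = 0.0857, adjusted p = 0.231). The total level of Apoe in these 3 libraries, 32280, 25170 and 33570 TPM, included the lowest of all 16 libraries, that of high-fat replicate 2.

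**Figure D5:**
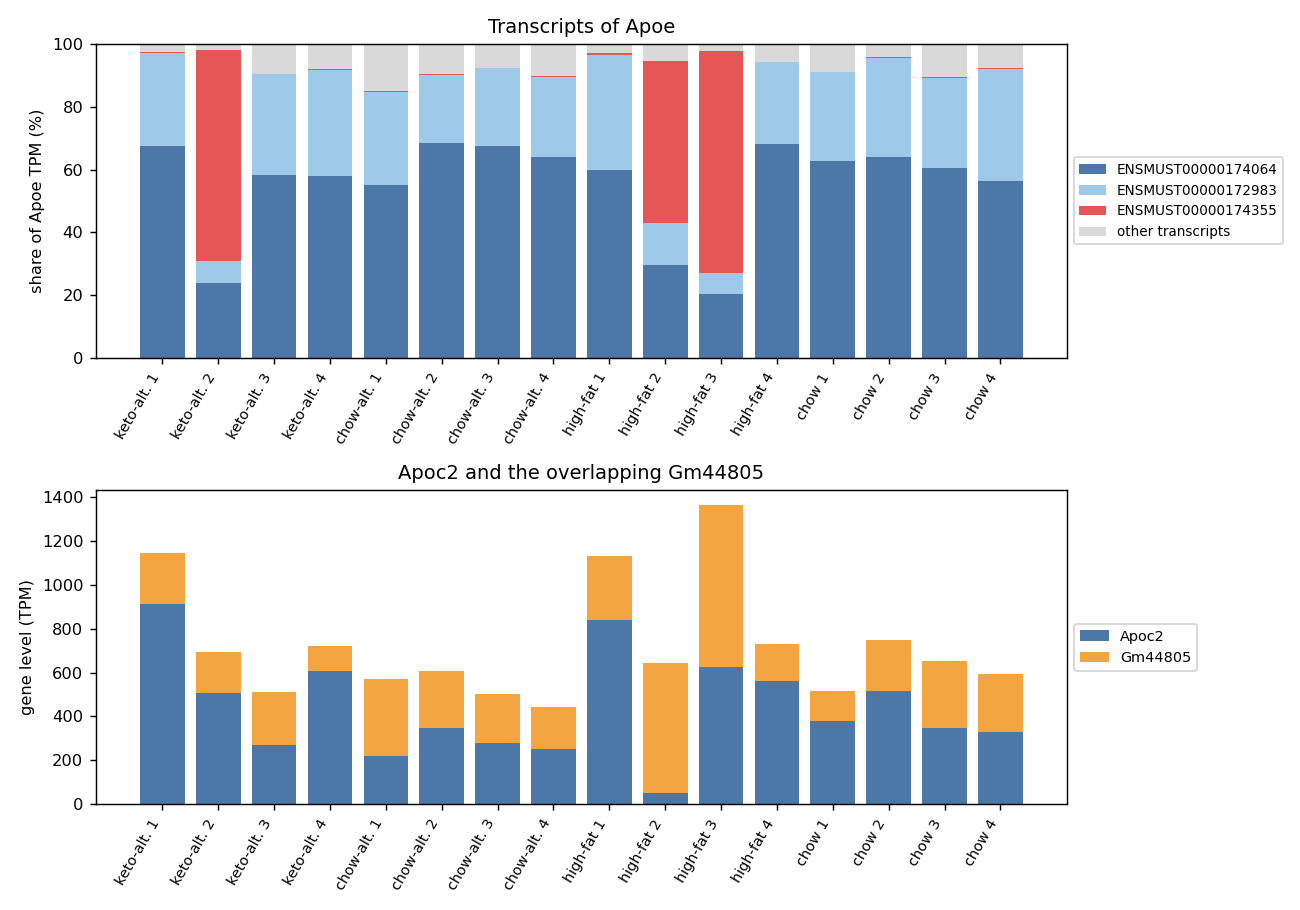
Upper panel, share of each library's Apoe TPM held by 3 transcripts and the remainder (%); lower panel, TPM of Apoc2 stacked with the overlapping gene Gm44805, for 16 libraries. ENSMUST00000174355 exceeds 50% in 3 libraries and is under 1% in the other 13, and high-fat replicate 2 has 49.8 TPM of Apoc2 beside 594 TPM of Gm44805.

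Apoc2, the activator of lipoprotein lipase (ENSMUSG00000002992, 19671579 to 19677941), shares exons with Gm44805 (19671584 to 19681423), an annotated gene that also shares an exon with the adjacent Apoc4, so the split of reads between them is uncertain. Apoc2 was 912, 508, 268 and 608 TPM in ketogenic-alternating livers, 218, 348, 277 and 253 TPM in chow-alternating livers, 838, 49.8, 628 and 560 TPM in high-fat livers, and 377, 517, 348 and 328 TPM in chow livers. High-fat replicate 2 was far below the rest, and the same library held 594 TPM of Gm44805 and 752 TPM of Apoc4, which was at least 1693 TPM elsewhere. Summed with Gm44805, Apoc2 averaged 768 ± 268, 531 ± 73.8, 968 ± 339 and 629 ± 98.6 TPM in ketogenic-alternating, chow-alternating, high-fat and chow livers (SD, n = 4 each). The log2 fold change of Apoc2 alone in ketogenic-alternating against chow-alternating livers was 0.96 (SE 0.303, limma adjusted p = 0.0849), or 1.28 (adjusted p = 0.0173) without ketogenic-alternating replicate 3, and that of the sum was 0.48 (SE 0.207, adjusted p = 0.158). Leaving out ketogenic-alternating replicate 1, which had the highest Apoc2 level, gave 0.69 for Apoc2 alone (limma adjusted p = 0.158). In high-fat against chow livers the value was -0.15 for Apoc2 alone (SE 0.700, limma adjusted p = 0.982) and 0.57 for the sum (SE 0.243, adjusted p = 0.387). Of 24 neighbours within 250000 bases of this cluster 17 passed the filter, and Trappc6a, a trafficking complex gene, was the only one called in any comparison, higher in ketogenic-alternating than in chow-alternating livers (log2 fold change 0.36, limma adjusted p = 0.0428) and than in chow livers (0.58, adjusted p = 0.0375).

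Lists of other genes of lipoprotein handling were examined in the comparisons with the high-fat group. In the 3 comparisons high-fat against chow, chow-alternating against high-fat and ketogenic-alternating against high-fat, limma called none of 10 other apolipoprotein genes, 15 genes of very-low-density lipoprotein assembly, 9 of high-density lipoprotein remodelling, 6 of lipolysis, 19 transcriptional regulators of apolipoprotein genes, 3 of Apob mRNA editing, 5 other target genes of CREB-H and 12 target genes of PPAR alpha. Counting each gene once, an unadjusted p below 0.05 was found for 17 of 79 genes in high-fat against chow, 7 of 79 in chow-alternating against high-fat and 18 of 79 in ketogenic-alternating against high-fat livers. Over all genes tested these counts were 1274 of 10960, 452 of 10899 and 1116 of 11108 in the same order of comparisons. Creb3l3, which encodes CREB-H, a regulator of Apoa4 in mouse liver, averaged 272 ± 12.9, 217 ± 31.0, 199 ± 59.3 and 225 ± 55.7 TPM in ketogenic-alternating, chow-alternating, high-fat and chow livers, and had a log2 fold change of -0.20 in high-fat against chow livers (SE 0.245, limma adjusted p = 0.869). Hamp, the hepcidin gene and another target of CREB-H, averaged 750 ± 337 TPM in high-fat and 2300 ± 750 TPM in chow livers, the direction opposite to Apoa4 (log2 fold change -1.67, limma adjusted p = 0.0508). The remaining CREB-H targets tested, Fgf21, Cidec, Apcs and Crp, averaged higher in high-fat than in chow livers. The median log2 fold change of the 5 was 0.41, beside -0.05 for all genes, and none was called.

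The ketogenic-alternating livers differed from chow-alternating livers in more of these genes. Limma called 6 of 12 PPAR alpha target genes higher, with a median log2 fold change over the 12 of 0.68 beside 0.19 for all genes and 4.31% of all genes called higher. Among them was Vnn1, which encodes the pantetheine hydrolase vanin-1, at 84.2 ± 18.1 TPM in ketogenic-alternating and 24.4 ± 4.43 TPM in chow-alternating livers (SD, n = 4 each, log2 fold change 1.74, limma adjusted p = 5.22e-04). Of 5 other CREB-H target genes 2 were higher, the fasting hormone gene Fgf21 at 37.6 ± 24.0 TPM in ketogenic-alternating and 3.43 ± 1.03 TPM in chow-alternating livers (2.87, adjusted p = 0.0089), and the lipid droplet gene Cidec at 38.6 ± 22.4 and 2.32 ± 0.662 TPM in the same order (3.44, adjusted p = 3.7e-04). The other 3 tested had negative values that missed the threshold: Crp at -0.31 (adjusted p = 0.0540), Apcs at -0.44 (adjusted p = 0.0952), both without overlap, and Hamp at -1.15 (adjusted p = 0.124), so the median of the 5 was -0.31 beside 0.19 for all genes. Without ketogenic-alternating replicate 1 the calls of Vnn1, Fgf21 (2.50, adjusted p = 0.0117), Cidec and Lipg held, as did the counts of 6 PPAR alpha and 2 CREB-H target genes. Lipg, the endothelial lipase gene, was the 1 of 9 genes of high-density lipoprotein remodelling called, and it was higher (8.49 TPM in ketogenic-alternating and 3.62 TPM in chow-alternating livers, log2 fold change 1.05, limma adjusted p = 0.0186). Elsewhere 1 of 10 other apolipoprotein genes and 1 of 19 transcriptional regulators were called higher, and of 6 lipolysis genes 1 was higher and 1 lower. None of 15 genes of very-low-density lipoprotein assembly and 3 of Apob mRNA editing was called, beside 5.04% of all genes.

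Markers of several cell types also differed between ketogenic-alternating and chow-alternating livers. The 9 hepatocyte markers summed to 75800 to 78400 TPM in ketogenic-alternating and 96100 to 104000 TPM in chow-alternating livers, and 1 of the 9, Serpina1c, was called lower (log2 fold change -0.51, limma adjusted p = 0.0213). Of all genes 5.04% were called in either direction. With ketogenic-alternating replicate 1 left out, 3 of the 9 were called lower, Serpina1c, Ahsg and Ass1 (limma adjusted p = 0.0324, 0.0434 and 0.0445). The 7 adipocyte markers summed to 192 to 262 TPM in ketogenic-alternating, 130 to 177 TPM in chow-alternating, 108 to 194 TPM in high-fat and 84.6 to 235 TPM in chow livers. Adipor2 alone carried most of each sum, at 138 to 208 TPM in ketogenic-alternating, 128 to 173 TPM in chow-alternating, 101 to 184 TPM in high-fat and 83.3 to 230 TPM in chow livers. Lep was at 0 in all 16 libraries, and Adipoq and Plin1 were at 0 in all chow libraries and at most 0.921 TPM elsewhere. Limma called 2 of 3 markers tested higher in ketogenic-alternating than in chow-alternating livers, Cfd (log2 fold change 4.10, adjusted p = 3.58e-04) and Cidec, which is also among the CREB-H targets. Of 7 sinusoidal endothelial markers 1, Clec4g, was called higher (0.69, adjusted p = 0.0418), with a median log2 fold change over the 7 of 0.52 beside 0.19 for all genes. None of 9 Kupffer cell, 3 recruited macrophage, 7 stellate cell, 3 cholangiocyte and 5 red blood cell markers tested was called, and their medians were 0.76, 0.17, 0.41, -0.08 and -0.86. The Kupffer cell markers summed to 187 to 648 TPM in ketogenic-alternating and 211 to 284 TPM in chow-alternating livers, and the red blood cell markers to 514 to 920 TPM and 629 to 2320 TPM. Without ketogenic-alternating replicate 1 the Kupffer cell median was 0.53 and the red blood cell median -0.88. Against chow livers the Kupffer cell median was 0.82, or 0.61 without that library. In that comparison 2 of 9 hepatocyte markers were called lower, beside 5% of all genes called in either direction, and 1 of 9 without that library. The part of other cell types in the results was not tested.

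Across all 16 libraries the genes whose log2(TPM + 1) most resembled that of Apoa4, among 10732 genes ranked by Pearson r, were Stap1 (r = 0.936), Lad1 (0.882), Arsg (0.882), Psmb9 (0.879) and Extl1 (0.866). Stap1, an adaptor protein gene, averaged 3.31 ± 1.11, 0.619 ± 0.484, 3.22 ± 2.01 and 0.238 ± 0.119 TPM in ketogenic-alternating, chow-alternating, high-fat and chow livers (SD, n = 4 each). The most opposed genes were Cyp2b10 (r = -0.929), Cyp3a25 (-0.922), Ces2a (-0.898), P4ha2 (-0.852) and Ces1c (-0.851), among them cytochromes P450 and carboxylesterases. Ces2a averaged 108 ± 21.7 and 241 ± 23.9 TPM in ketogenic-alternating and chow-alternating livers, and 132 ± 28.9 and 406 ± 47.1 TPM in high-fat and chow livers. Among the other 9 genes described here the r with Apoa4 was highest for Apoa1 (0.687) and lowest for Apoa2 (-0.506). These values describe 16 libraries in 4 diet groups that share their differences of mean. Within groups the r with Apoa4 was 0.651 for Stap1, 0.72 for Lad1, 0.635 for Arsg, 0.346 for Psmb9 and 0.323 for Extl1. It was -0.498 for Cyp2b10, -0.484 for Cyp3a25, -0.407 for Ces2a, -0.236 for P4ha2 and -0.152 for Ces1c, and 0.379 for Apoa1.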

How the data were processed

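Liver RNA of 16 libraries, 4 per regimen, was sequenced by the authors. The deposited values are TPM per gene and per transcript; the series' design text speaks of FPKM, but each deposited column sums to 1000000, as TPM does. HISAT2, RSEM 1.1.17 and edgeR 3.14.0 are named in the submitters' processing notes, and the design text names Ensembl release 96. TPM keeps no read counts, so depth is unknown and no count test or counting interval was used.

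A gene was tested when 4 or more of a comparison's 8 libraries held 1 TPM of it or more. Tests were run on log2(TPM + 1) with limma 3.58.1 (R 4.3.3, intensity trend), 4 against 4 libraries, with Benjamini-Hochberg adjustment over all genes tested and a threshold of 0.05 without a fold limit. Fold changes on this scale understate those of low genes. Transcript shares were compared by exact permutation over 70 divisions of 8 libraries. Other values were computed with Python 3.11.15, pandas 2.3.3 and numpy 2.4.6. Positions are from GENCODE vM21 on mm10, in which 22505 of 22612 gene identifiers were found. The fits were tested on simulated data.

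The genes and the gene lists were chosen with earlier results of these data known. All 10 genes are described. From the lists the text names only some of the genes that passed a test in any comparison and some of the most abundant ones, and all CREB-H targets tested. It also names the 5 genes most like Apoa4 and the 5 most opposed. Markers of 10 cell types were examined. Alternatives covered the pseudocount, the filter, the scaling, the samples in the fit, the trend, a fold limit, a replicate block and each library left out. Leaving out the 4 libraries with over 33% of TPM in 20 genes, summing Apoc2 with Gm44805, and refitting the lists without ketogenic-alternating replicate 1 were chosen after seeing the data. Some genes of the lists are not reported here.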

Additional observations from a re-analysis of the deposited data

Results flagged for a closer look

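Of 96 groups of 4 libraries examined, 3 held a library set apart from the other 3 by a gap that was large for the range of its group, and chance gives about 1 in 20. Apoa4 was 7053 TPM in ketogenic-alternating replicate 1, against 1505 to 2448 TPM in the other 3 libraries, a gap of 0.83 of the range. The same library held the highest levels of the enterocyte markers Cdx1 (0.531 TPM), Cdx2 (0.385 TPM), Alpi (0.154 TPM), Vil1 (0.886 TPM) and Mep1b (0.245 TPM). It was not the highest of its group for the more abundant markers Fabp2 (270 TPM against 205 to 320 TPM) and Anpep (48.2 TPM against 51.8 to 62.0 TPM). Slc5a1 was 1.04 TPM there and highest in chow-alternating replicate 1 (1.41 TPM), and Sis and Lct were at 0. Within its group ketogenic-alternating replicate 1 also held the highest levels of Epcam, Krt19, Gpnmb and Trem2. The part of these genes in the Apoa4 level was not tested. P4hb, the Mttp partner protein disulfide isomerase, was 636.0 TPM in chow-alternating replicate 4, against 671.5 to 676.2 TPM. A1cf, a cofactor of Apob mRNA editing, was 103.8 TPM in chow replicate 1, against 21.7 to 34.17 TPM.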

How the results depend on the processing

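Of 1136 fold changes of the 10 genes under alternative settings, 1015 kept direction and side of the threshold, 49 lost a call, 12 gained one and 60 changed sign. The 60 belong to 23 results, and none of these was called with the settings of the report; the causes were not tested. With 4 libraries a group and unknown depth, small changes cannot be resolved.

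Genes called in high-fat against chow livers numbered 116, and 60 with no filter on low values, 399 with all 16 libraries in 1 fit, 43 with the replicate block and 19 without the libraries over 33% in 20 genes, and 36 to 125 when 1 library was left out. Genes called in chow-alternating against high-fat livers numbered 5, and 3 with a mean of at least 5 TPM, 12 with the replicate block and 1 without the libraries over 33% in 20 genes, and 3 to 32 when 1 library was left out. Genes called in ketogenic-alternating against high-fat livers numbered 4, and 1 with no filter on low values and 16 with all 16 libraries in 1 fit, and 2 to 22 when 1 library was left out. Genes called in ketogenic-alternating against chow-alternating livers numbered 554, and 274 with no filter on low values, 307 with median-of-ratios scaling, 342 with rescaling without the 20 highest and mitochondrial genes, 107 with all 16 libraries in 1 fit, 181 with the replicate block and 86 with a fold change of at least 2, and 162 to 2513 when 1 library was left out. Genes called in chow-alternating against chow livers numbered 126, and 3 with no filter on low values, 200 with median-of-ratios scaling and 67 with a fold change of at least 2, and 32 to 242 when 1 library was left out. Genes called in ketogenic-alternating against chow livers numbered 555, and 351 with no filter on low values, 257 with a fold change of at least 2 and 189 without the libraries over 33% in 20 genes, and 181 to 1620 when 1 library was left out.

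With median-of-ratios scaling, the log2 fold changes that changed sign were 0.03071 for Mttp in high-fat against chow, -0.1199 for Mttp and -0.1666 for Apoe in ketogenic-alternating against high-fat, -0.1328 for Mttp and -0.08428 for Apoe in ketogenic-alternating against chow-alternating, -0.08173 for Mttp in ketogenic-alternating against chow. Without the libraries over 33% in 20 genes, the log2 fold changes that changed sign were 0.7512 for Apoc2 in high-fat against chow, 0.2523 for Apoc3 and -0.06196 for Apoa5 and -0.08794 for Mttp in chow-alternating against high-fat, -0.1244 for Apob and -0.02827 for Mttp and -0.1752 for Apoc2 in ketogenic-alternating against high-fat, 0.01158 for Apoa2 and -0.3156 for Apob and -0.2822 for Mttp and 0.001578 for Apoc1 in chow-alternating against chow, -0.2225 for Mttp in ketogenic-alternating against chow. With Apoc2 summed with Gm44805, the log2 fold changes that changed sign were 0.5669 for Apoc2 in high-fat against chow, -0.3264 for Apoc2 in ketogenic-alternating against high-fat. With rescaling without the 20 highest and mitochondrial genes, the log2 fold changes that changed sign were -0.007078 for Apoe in ketogenic-alternating against high-fat, -0.006836 for Mttp in ketogenic-alternating against chow-alternating, -0.02201 for Apoc3 and -0.03798 for Mttp in chow-alternating against chow, -0.04481 for Mttp in ketogenic-alternating against chow. In high-fat against chow livers Apoc3 ranged -0.09074 to 0.2267, Mttp ranged -0.178 to 0.1525, Apoc2 ranged -0.5663 to 0.783 with 1 library left out. In chow-alternating against high-fat livers Apoa2 ranged -0.05112 to 0.1462, Apoc3 ranged -0.177 to 0.06224, Mttp ranged -0.1305 to 0.1657, Apoe ranged -0.1213 to 0.02125, Apoc2 ranged -1.298 to 0.05161, Apob ranged -0.4249 to 0.003867 with 1 library left out. In ketogenic-alternating against high-fat livers Apob ranged -0.0248 to 0.404, Mttp ranged -0.07084 to 0.2254, Apoe ranged -0.01115 to 0.1314, Apoc2 ranged -0.3419 to 1.007 with 1 library left out. In ketogenic-alternating against chow-alternating livers Mttp ranged -0.03267 to 0.1434 with 1 library left out. In chow-alternating against chow livers Apoc3 ranged -0.1298 to 0.1876, Mttp ranged -0.1281 to 0.2024, Apob ranged -0.03279 to 0.5601 with 1 library left out. In ketogenic-alternating against chow livers Apoa5 ranged -0.1578 to 0.04699, Mttp ranged -0.06838 to 0.2621 with 1 library left out.

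In no comparison did all 4 pairs of same-numbered libraries correlate above 0.1, though 2 of 4 did in chow-alternating against high-fat livers. These pairs ranged between -0.597 and 0.407, and differently numbered libraries between -0.538 and 0.526. The numbers are not treated as pairs, but this check cannot exclude pairing of some libraries. With the replicate block the adjusted p of Apoa1 was 0.349 in high-fat and 0.073 in ketogenic-alternating against chow livers, and that of Apoc3 was 0.0997 in ketogenic-alternating against chow-alternating livers.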
